A study of Mus musculus with 2 samples.

Results

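Genes for zinc finger transcription factors were examined for binding of their RNA by BUD31, a spliceosome protein, as read out by RIP-seq, in which an antibody pulls down a protein and the RNA that comes with it is sequenced. Members were taken by name: every gene that the authors' peak annotation gives as protein-coding and whose symbol starts with Zfp, Zbtb, Zscan or Zkscan. This gave 55 of the 2710 protein-coding genes in the list, with 197 of its 14411 protein-coding peaks. The germ cells were taken from C57BL/6J testes on postnatal day 14 and were released by digestion with enzymes, with no other treatment or genotype given. There was 1 anti-BUD31 library and 1 Input library, and the Input was made from 10% of the total RNA. The deposited data are 1 list of peaks on mm10, each with a gene and a class (intron, exon, UTR or outside the gene), and no read count, fold, score or strand stands beside a peak. Depth is therefore unknown, nothing could be checked across replicates, no p-value is given, and expression in these cells was not measured. The germ cell label could not be checked against marker levels. Brackets give Wilson 95% intervals, and these span only the counting error over the genes or peaks counted.

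Zinc finger proteins of the C2H2 type fold short loops around a zinc ion, and arrays of these loops read DNA sequence. The family is among the largest groups of transcription factor genes in mammals. Zfp is a general symbol, and many such proteins carry a KRAB domain that recruits the co-repressor TRIM28 to silence transposons. Zbtb proteins carry a BTB domain, which pairs proteins and binds co-repressors, Zscan proteins carry a SCAN domain for pairing, and Zkscan proteins carry both KRAB and SCAN. Many of these genes lie in tandem clusters that arose by duplication. The label holds only in part, since the symbol rule also takes Zfp185, a LIM domain protein tied to the actin cytoskeleton, and Zfp451, whose human counterpart is a SUMO ligase. Among the genes counted without a peak, Zfp36l1 and Zfp36l3 are RNA-binding proteins with another type of finger.

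On the chromosomes where the list is dense, zinc finger genes had a peak more often than protein-coding genes at large, and over the whole list the 2 shares had overlapping intervals. The reference gene table holds 269 zinc finger genes on the 15 chromosomes with peaks, and 57 of them had one (21.2%, 16.7% to 26.5%), against 18.1% of all 14867 protein-coding genes there (17.5% to 18.7%). These 57 are the 55 members and 2 genes that the list gives under other symbols, Zfp469 with 2 intron peaks and Zfp996 with 1 intergenic peak. Peaks were dense, named for 10% or more of the coding genes, on 8 chromosomes, called well covered in the plots (1, 5, 8, 10, 12, 16, 18 and X). There 55 of 108 zinc finger genes had one (50.9%, 41.6% to 60.2%), against 34.5% of 7352 coding genes (33.4% to 35.5%), and these intervals do not overlap. On the other 7 chromosomes 2 of 161 zinc finger genes had one (1.24%, 0.341% to 4.42%), against 2.1% of coding genes. Giving each of the 108 genes the share of its own chromosome adds up to 34.6 genes. For all 269 genes this sum is 38.2 genes, against the 57 that had a peak. A further 199 zinc finger genes, 104 of them on chromosome 7, are not analysed here because their chromosomes hold no listed peak.

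The zinc finger share was above the coding share on each of the 8 dense chromosomes, though most of these counts are small. On chromosome 1, 6 of 7 zinc finger genes had a peak (85.7%, 48.7% to 97.4%), against 38.8% of coding genes (36.1% to 41.6%). Chromosome 12 had 7 of 9 (77.8%, 45.3% to 93.7%), against 42.7% (39.0% to 46.5%), and chromosome 18 had 9 of 13 (69.2%, 42.4% to 87.3%), against 37.4% (33.3% to 41.7%). On chromosome 5 the share was 14 of 25 (56%, 37.1% to 73.3%), against 37.9% (35.3% to 40.6%). On chromosomes 8 and 10 the shares lay close together, at 15.4% against 13.7% and at 30% against 28.5%. Of the 26 zinc finger genes on chromosome 8 only 4 had a peak, and without that chromosome 51 of 82 zinc finger genes had one (62.2%, 51.4% to 71.9%), against 37.9% of coding genes (36.7% to 39.1%).

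**Figure D1:**
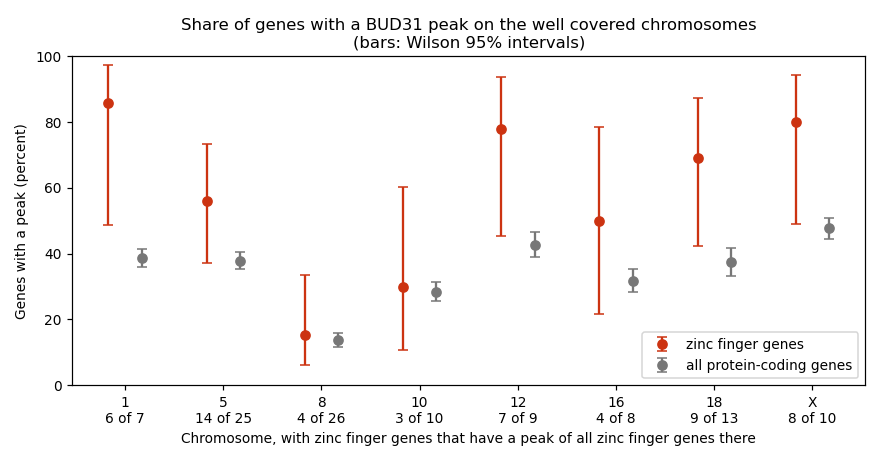
Share of genes with at least 1 peak (vertical axis, percent) on each of the 8 chromosomes with dense peaks, for zinc finger genes (red, left) and all protein-coding genes (grey, right). Points are shares and bars Wilson 95% intervals; the zinc finger points run from 15.4% on chromosome 8 to 85.7% on chromosome 1, and the intervals are wide because each rests on 7 to 26 genes.

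Median lengths of zinc finger genes and of coding genes were close, but their lengths were not spread alike. On the dense chromosomes the median span was 19.3 kb for zinc finger genes and 21.5 kb for coding genes. By chromosome the medians differed more, at 99.3 kb against 33.1 kb on chromosome 18. The zinc finger median was also higher on chromosomes 16 and X, and lower on chromosomes 1, 5, 8, 10 and 12. The part of length in the share of a single chromosome was not tested. Coding genes on the dense chromosomes were split into 5 equal groups by span. From shortest to longest, these groups held 6, 27, 45, 13 and 17 of the 108 zinc finger genes. In the middle group, of 14.8 to 30.4 kb, 25 of 45 zinc finger genes had a peak (55.6%, 41.2% to 69.1%), against 37.7% of coding genes (35.2% to 40.2%). From 5.35 to 14.8 kb the share was 8 of 27 (29.6%, 15.9% to 48.5%), against 25.4% (23.2% to 27.7%). From 30.4 to 71.0 kb it was 9 of 13 (69.2%, 42.4% to 87.3%), against 48.7% (46.2% to 51.3%), and above that 11 of 17 (64.7%, 41.3% to 82.7%), against 51.1% (48.5% to 53.6%). In the shortest genes it was 2 of 6 (33.3%, 9.68% to 70.0%), against 9.45% (8.06% to 11.1%). Of these 5 groups, the middle one was that in which the intervals did not overlap. Long genes could also lack a peak, as many long coding genes did: in the longest group, above 71.0 kb, 720 of 1471 coding genes had none. Of 13 zinc finger genes longer than 100 kb on these chromosomes 6 had none, among them Zfp804b at 575 kb, Zbtb7c at 328 kb and Zfp423 at 300.2 kb.

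By subfamily, Zbtb genes had a peak in 10 of 16 cases on the dense chromosomes (62.5%, 38.6% to 81.5%) and Zfp genes in 40 of 86 (46.5%, 36.3% to 57.0%). All 3 Zscan genes (43.9% to 100%) and 2 of 3 Zkscan genes (20.8% to 93.9%) there had one, against 34.5% of coding genes. These intervals overlap, so no order among the subfamilies can be read. Over all chromosomes with peaks the counts were 42 of 223 Zfp (18.8%, 14.2% to 24.5%), 10 of 34 Zbtb (29.4%, 16.8% to 46.2%), 3 of 6 Zscan and 2 of 6 Zkscan genes, against 18.1% of coding genes. The Zfp share over all these chromosomes was thus close to that of coding genes. With only peaks inside the gene body counted, 2 of 6 Zscan genes had one, against 17.1% of coding genes. The single Zscan21 peak lay off the gene.

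Peaks were spread unevenly over the members. Of the 55 members 18 had 1 peak, 13 had 2, 21 had 3 to 9 and 3 had at least 10. The median was 2 peaks per gene (interquartile range 1 to 5), and over all coding genes in the list it was also 2 (1 to 6). The part of a gene that its peaks covered had a median of 14.5% (interquartile range 4.45% to 42.8%), against 13.5% (3.82% to 38.9%) over all coding genes with a peak. Genes with at least 10 peaks made up 5.45% of members (1.87% to 14.9%), against 13.7% of coding genes with a peak (12.4% to 15.0%). Members were shorter than the coding genes in the list at large, with median spans of 21.3 kb against 37.4 kb.

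**Figure D2:**
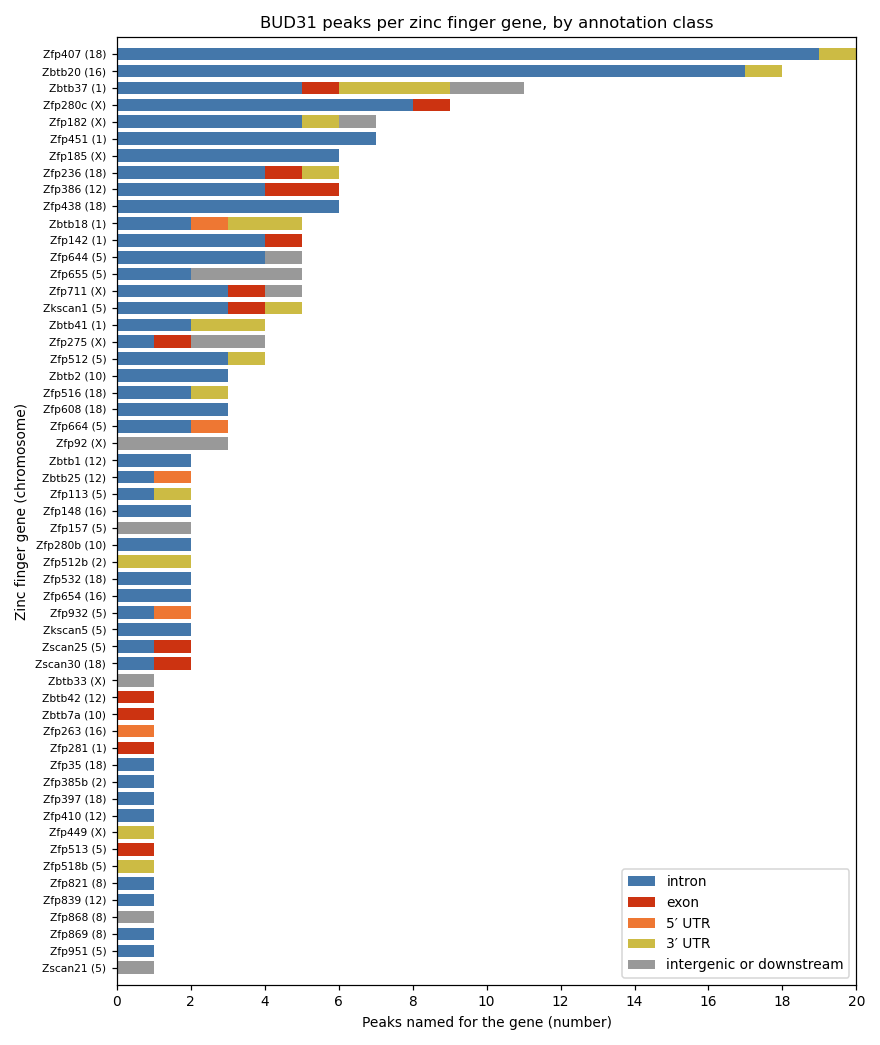
Number of peaks named for each of the 55 zinc finger genes (horizontal axis), coloured by the authors' class, with the chromosome in brackets. Zfp407, Zbtb20 and Zbtb37 lead with 20, 18 and 11 peaks, and 18 genes have 1.

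Zfp407, whose loss in adipocytes lowers insulin-stimulated glucose uptake, carried the most peaks. Its 20 peaks, 19 of them in introns, lie on chromosome 18 in a gene from 84207701 to 84589539, and cover 31.3% of its 381.8 kb. They fall into 2 stretches: 18 peaks form a run of 138.8 kb of which they cover 72.9%, and 2 peaks lie beyond a gap of 168.4 kb. That run holds the widest member peak, 31600 bp in an intron at 84366801 to 84398400, and a peak of 16000 bp annotated as 3′ UTR. The gap is not empty in the list. Another 15 peaks are named for Zfp407 through a non-coding transcript, so the rule leaves them out, and all 15 lie in that gap. Counting them, Zfp407 had 35 peaks over 65.7% of its length.

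Zbtb20, a BTB repressor needed in hippocampal neurons and in liver, showed another arrangement. Its 18 peaks, 17 in introns and 1 in the 3′ UTR, lie on chromosome 16 between 42878201 and 43626200 and cover 3.32% of the 758.7 kb gene. Their median width was 1000 bp (400 to 5600 bp), against 3700 bp in Zfp407. Neighbouring peaks lay a median of 20 kb apart, against 2.2 kb in Zfp407. The running numbers of its peaks span 95, and 76 of these have no peak in the list, so the list holds a part of what was numbered along this gene. The 3′ UTR peak also overlaps the coding gene Tigit, and without strand it cannot be given to 1 gene.

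Zbtb37 had the most peaks for its length among these 3, with 11 over 62.3% of a gene of 31.9 kb on chromosome 1 (161002922 to 161034864). They lay a median of 0.41 kb apart and were mixed in class, with 5 in introns, 3 in the 3′ UTR, 1 in an exon, 1 downstream and 1 intergenic. The last 2 fall inside the gene's extent in the reference table, which differs from the authors' annotation there. Its widest peak, of 7175 bp, is an intron peak that begins 3.26 kb from the gene's start. Zfp280c, whose human counterpart limits the resection of broken DNA ends, had 9 peaks over 45.7% of 53.0 kb on the X chromosome. Of these 8 were in introns and 1 in an exon, and the widest, of 8970 bp, begins 0.018 kb from the 5′ end of the gene.

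**Figure D3:**
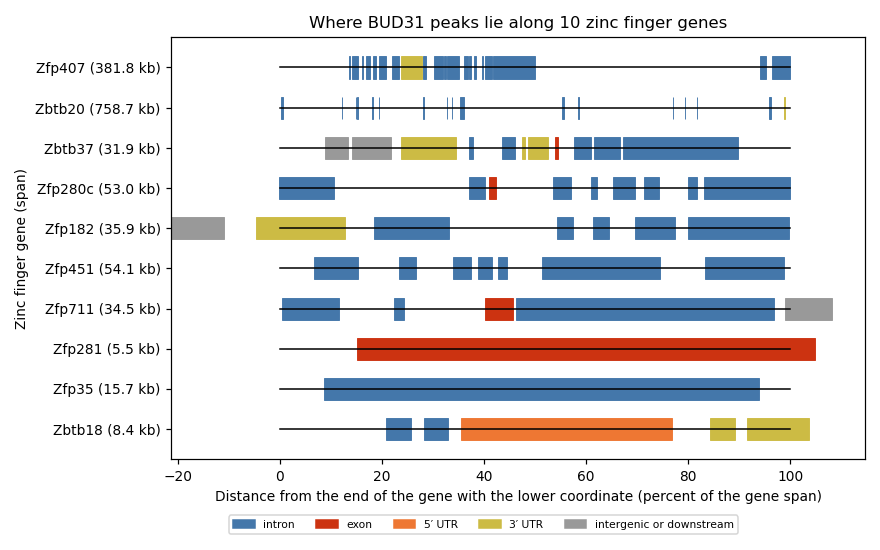
Peaks along 10 zinc finger genes, each drawn to its own length, with distance from the end of lower coordinate as a percent of the span (horizontal axis) and peaks coloured by class; thin outlines keep narrow peaks visible. Zfp407 shows a dense run and a gap, Zbtb20 scattered narrow peaks over 758.7 kb, and Zfp281 and Zfp35 a single peak over most of the gene.

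A peak touched the annotated promoter of its own gene in 5 members. Promoter windows, from RefSeq on GRCm38.p6, take 250 bases before and 50 after a transcript's start, and 40 of the 55 members had one. The 5 members were Zfp280c, Zfp263, Zfp275, Zfp451 and Zbtb18. The same share over coding genes is not given, so these 5 cannot be read as many or few. The windows of 4 are shown, because each has 1 window touched by a peak: in 2 the peak's edge crosses the window and in 2 the window lies wholly inside the peak. Zbtb18 has 4 such windows, with 105 to 300 bases inside a peak, and they are not printed. Bases inside the peak are in capitals, 5′ to 3′ on the gene's strand.
Zfp280c, chrX:48594570-48594869, minus strand: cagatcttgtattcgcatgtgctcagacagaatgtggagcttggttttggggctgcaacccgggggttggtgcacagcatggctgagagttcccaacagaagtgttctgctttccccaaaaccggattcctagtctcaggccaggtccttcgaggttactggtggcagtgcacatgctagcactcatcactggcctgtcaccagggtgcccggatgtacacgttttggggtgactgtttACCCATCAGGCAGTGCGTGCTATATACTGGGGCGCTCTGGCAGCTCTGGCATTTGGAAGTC
Zfp263, chr16:3743849-3744148, plus strand: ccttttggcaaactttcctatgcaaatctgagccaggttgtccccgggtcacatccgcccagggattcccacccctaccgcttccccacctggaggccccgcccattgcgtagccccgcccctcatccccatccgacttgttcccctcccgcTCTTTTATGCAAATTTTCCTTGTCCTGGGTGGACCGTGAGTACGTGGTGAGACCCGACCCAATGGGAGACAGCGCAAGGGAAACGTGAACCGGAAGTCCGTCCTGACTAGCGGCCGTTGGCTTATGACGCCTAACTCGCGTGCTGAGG
Zfp275, chrX:73342370-73342669, plus strand: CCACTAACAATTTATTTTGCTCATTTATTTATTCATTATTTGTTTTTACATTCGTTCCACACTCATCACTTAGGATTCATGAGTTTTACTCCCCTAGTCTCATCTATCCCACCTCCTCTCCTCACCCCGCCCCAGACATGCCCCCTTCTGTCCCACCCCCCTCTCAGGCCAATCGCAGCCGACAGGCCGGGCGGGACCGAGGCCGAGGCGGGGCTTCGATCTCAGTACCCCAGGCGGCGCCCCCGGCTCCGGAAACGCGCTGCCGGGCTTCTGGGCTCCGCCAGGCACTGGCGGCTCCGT
Zfp451, chr1:33814546-33814845, minus strand: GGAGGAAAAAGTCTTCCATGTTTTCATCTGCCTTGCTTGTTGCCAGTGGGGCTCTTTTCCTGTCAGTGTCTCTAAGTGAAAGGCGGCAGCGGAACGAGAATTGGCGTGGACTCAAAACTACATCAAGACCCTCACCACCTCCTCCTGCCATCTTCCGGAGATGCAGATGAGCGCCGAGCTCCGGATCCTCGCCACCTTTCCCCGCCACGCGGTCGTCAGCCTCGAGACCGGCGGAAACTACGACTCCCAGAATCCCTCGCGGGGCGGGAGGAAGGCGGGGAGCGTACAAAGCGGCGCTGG

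In Zfp280c the last 61 bases lay in the peak, and in Zfp263 the last 148, so both peaks began near the start of the gene. The windows of Zfp275 and Zfp451 lay wholly inside peaks of 5750 and 8405 bp, both annotated as intron. Counted along the gene from its start in the reference table, the Zfp275 peak ran between -0.422 and 5.33 kb and the Zfp451 peak between 0.647 and 9.05 kb. The 3 copies of the GC box GGGCGG (either strand) in the Zfp263 window all lay in the 152 bases outside the peak. For the first listed window of each gene, 26 of 40 members held a GC box (65%, 49.5% to 77.9%), against 46.3% of 17492 coding genes. The letters TATAAA (either strand) occurred in 0 of 40 (up to 8.76%), against 13.3%, though each of the 4 later-listed Zbtb18 windows touched by a peak holds 1 or 2 copies. CCAAT (either strand) occurred in 40% against 39.0%. Median GC content was 60.3% in members and 56.3% in coding genes. All 40 members have a peak, while the coding genes here include genes without one and genes on chromosomes without peaks. These contrasts are therefore not of zinc finger genes alone. No window of a gene on chromosome 18 was used.

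Introns held fewer of the members' peaks than of coding peaks at large, and exons and UTRs more. Of 197 member peaks 140 were annotated as intron (71.1%, 64.4% to 76.9%), against 84.6% of 14411 coding peaks (84.0% to 85.1%). Exons and UTRs together held 39 (19.8%, 14.8% to 25.9%), against 9.87% (9.39% to 10.4%), and 18 lay outside the gene by class (9.14%, 5.86% to 14.0%), against 5.57% (5.20% to 5.95%). An exon or UTR peak was found in 29 of 55 members (52.7%, 39.8% to 65.3%), against 38.9% of coding genes with a peak (37.0% to 40.7%). With 1 peak kept per gene, the widest, introns held 63.6% (50.4% to 75.1%), against 74.9% (73.2% to 76.5%), and these intervals overlap. Peaks of 1 gene share that gene's RNA, so the intervals over peaks are too narrow.

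Intron shares were higher in longer genes in both sets, and members were shorter than coding genes with a peak. In the middle span group introns held 33 of 59 member peaks (55.9%, 43.3% to 67.8%), against 75.9% of coding peaks (73.7% to 78.0%). From 30.4 to 71.0 kb the shares were 73.1% (59.7% to 83.2%) against 83.6% (82.4% to 84.9%). In the longest genes they were 91.0% (81.8% to 95.8%) against 92.0% (91.4% to 92.5%), and from 5.35 to 14.8 kb 50% (26.8% to 73.2%) against 55.4% (51.8% to 59.1%). In the middle group exons and UTRs held 23.7% (14.7% to 36.0%), against 15.2% (13.5% to 17.1%), and classes outside the gene 12 of 59 peaks (20.3%), against 8.86%.

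**Figure D4:**
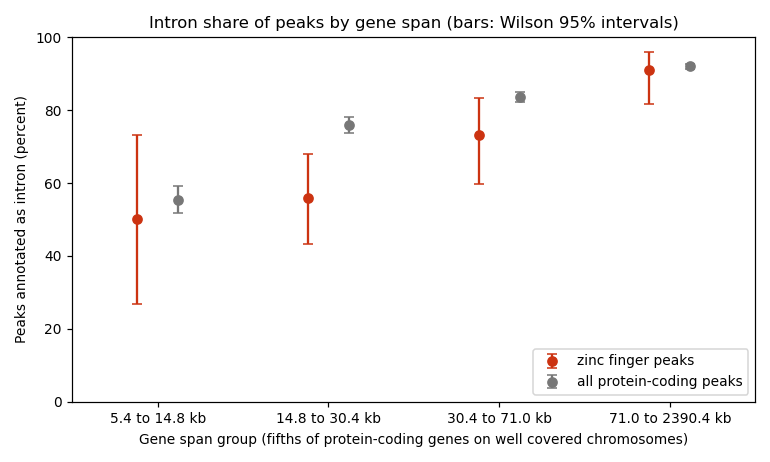
Share of peaks annotated as intron (vertical axis, percent) by gene span group (horizontal axis), for zinc finger peaks (red, left) and all protein-coding peaks (grey, right), with Wilson 95% intervals. The points are furthest apart from 14.8 to 30.4 kb, at 55.9% and 75.9%, and close in the longest genes, at 91.0% and 92.0%; the shortest group, with 2 zinc finger peaks, is not drawn.

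Exon peaks numbered 15 in 14 members. That of Zfp281, a regulator of pluripotency, was 4920 bp wide and covered 84.8% of its 5.49 kb gene on chromosome 1 (136624901 to 136630391). Zbtb7a, a repressor of fetal globin genes, had 1 exon peak of 2000 bp, Zfp513 had 1 of 3000 bp that also overlaps Snx17, and Zbtb42 had 1 of 205 bp. Those of Zfp236 (2400 bp), Zfp142 (2255 bp), Zfp711 (1840 bp), Zfp275 (7590 bp) and Zfp280c (690 bp) stood beside intron peaks of the same gene. Zfp386 had 2 exon peaks of 820 and 615 bp in the last part of a 15.5 kb gene, after 4 intron peaks.

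UTR peaks were of both kinds. The 5′ UTR held 5 peaks, 1 each in Zbtb25 (3690 bp), Zbtb18 (3485 bp), Zfp932 (3200 bp), Zfp263 (3000 bp) and Zfp664 (400 bp). That is 2.54% of member peaks (1.09% to 5.80%), against 0.729% of coding peaks (0.602% to 0.881%). Counted from the gene's start in the reference table, the Zfp263 peak began at -0.098 kb and the Zfp932 peak at 7.50 kb. The Zbtb25 peak began at 8.74 kb and the Zfp664 peak at 22.3 kb. The peak of Zbtb18, a transcriptional repressor that acts in neuronal development, runs from 2.98 to 6.47 kb of an 8.41 kb gene. With 2 intron and 2 3′ UTR peaks it brought the covered part to 64.5%. The 3′ UTR held 19 peaks in 14 members, 9.64% of member peaks (6.26% to 14.6%), against 5.43% (5.07% to 5.82%). Zbtb41 had 2 of them, of 2255 and 1230 bp, at the end of a 31.0 kb gene, Zfp516, a factor of brown fat, had 1 of 2600 bp and Zfp512 had 1 of 800 bp. In Zfp449 (690 bp), Zfp518b (800 bp) and Zfp512b (2 of 200 bp) the 3′ UTR held every peak of the gene. Both Zfp512b peaks also overlap Uckl1os, and without strand the genes cannot be separated.

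Intron peaks were found in 42 of 55 members (76.4%, 63.7% to 85.6%), against 83.8% of coding genes with a peak. They were the only kind in 19 members. The same count over coding genes is not given, so these 19 cannot be read as many or few. Zfp35, which is switched on transiently in spermatogenesis, had 1 of 13400 bp that covered 85.1% of the gene, the largest part in any of the 55 members. Each peak carries 1 class in the list, whatever else it overlaps. Zfp451 had 7 intron peaks over 58.8% of 54.1 kb, Zfp438 had 6 over 23.2% of 124.8 kb and Zfp185 had 6 over 57.9% of 44.3 kb. Zbtb2 had 3, of 1000 to 2200 bp. Zfp410, known for controlling the remodeller gene Chd4, had 1 of 4305 bp over 15.4% of the gene, and with 2 peaks named for a non-coding transcript 91.2% was covered. Zfp385b and Zfp512b on chromosome 2 were the members outside the dense chromosomes, and the single Zfp385b peak of 1000 bp covered 0.246% of 407.1 kb.

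Widths of member peaks were close to those of coding peaks at large. Their median width was 1600 bp (1200 to 1845 bp, a 95% interval from order statistics; interquartile range 800 to 3485 bp), against 1400 bp (1400 to 1400 bp; 615 to 3075 bp) over all coding peaks. The median was 1845 bp (1435 to 2600 bp) over 137 Zfp peaks and 1112.5 bp (820 to 1600 bp) over 48 Zbtb peaks. Zfp407 gave 20 of these Zfp peaks (median 3700 bp) and Zbtb20 gave 18 of the Zbtb peaks (median 1000 bp). The intervals count peaks of 1 gene as separate and are too narrow. The 7 Zkscan peaks had a median of 200 bp, which is 1 bin of the grid on which these positions lie. Along 36 members with a known strand and a peak inside the gene, cut into 10 equal parts, mean cover was lowest in the part at the 5′ end, at 21.2%, highest in the next, at 31.4%, and 26.9% at the 3′ end. Over 2042 coding genes it was also lowest at the 5′ end, at 20.7%, and reached at most 25.1%.

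Most X-linked zinc finger genes had a peak, and the part of the gene covered varied among them. Of 10 X-linked zinc finger genes 8 had a peak (80%, 49.0% to 94.3%), against 47.7% of 966 X-linked coding genes (44.6% to 50.9%), and these intervals overlap. With only peaks inside the gene body counted, 6 of 10 had one (60%, 31.3% to 83.2%), against 43.3%. For members the median width was 2530 bp on the X chromosome, against 1230 bp on autosomes. For coding genes these medians were 1840 bp and 1230 bp. Positions lie on a grid of 230 bp for the X chromosome, and of 200 or 205 bp for the other dense chromosomes. The covered part had a median of 51.8% in the 8 X-linked members (0% to 70.4%, a 95% interval from order statistics that takes in their whole range), against 13.8% in the 47 autosomal ones, and the medians for coding genes were 35.8% and 11.2%. Zfp711, whose human counterpart brings the demethylase PHF8 to promoters, had 5 peaks over 70.4% of the gene, among them an intron peak of 17480 bp. Zfp182 had 7 over 61.3% and Zfp275 had 4 over 69.3%, while the single peak of Zfp449, of 690 bp, covered 3.58% and the peaks of Zfp92 covered 0%. The only peak of Zbtb33, the methyl-CpG binding protein Kaiso, was annotated as downstream and yet covered 38.4% of the gene, and it also overlaps Tmem255a. Zfp300 and Zfp36l3 had none.

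In 4 members every peak lay off the gene: Zfp92, Zfp157, Zfp868 and Zscan21. The 3 Zfp92 peaks lay 9.67 to 14.5 kb before its start, in the stretch between Zfp275 and Zfp92 where 2 further peaks, 5.17 and 7.01 kb past the end of Zfp275, are named for Zfp275. The widest Zfp92 peak, of 2300 bp, also overlaps Gm18336. The 2 Zfp157 peaks lay 43.7 and 48.3 kb before its start, the Zscan21 peak 4.90 kb before it, and the Zfp868 peak 8.65 kb past its end. For these 4 genes the list holds no peak on the gene itself. The same count over coding genes is not given. Counting only peaks inside the gene body by class, 19.0% of zinc finger genes and 17.1% of coding genes had a peak. With all peaks these shares were 21.2% and 18.1%.

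Tandem clusters held genes with and without peaks. A cluster was taken as at least 3 zinc finger genes with gaps of at most 250 kb, which placed 98 of the 269 genes in 18 clusters, 68 of the genes on chromosomes where peaks are sparse. Over all chromosomes with peaks, 12 of 98 clustered genes had one (12.2%, 7.15% to 20.2%) and 45 of 171 isolated genes (26.3%, 20.3% to 33.4%), against 18.1% of coding genes, and the intervals of the clustered and isolated genes do not overlap. On the dense chromosomes the counts were 12 of 30 clustered genes (40%, 24.6% to 57.7%) and 43 of 78 isolated genes (55.1%, 44.1% to 65.7%), against 34.5% of coding genes, which lies inside the interval of the clustered genes. Clustered genes there were shorter, with a median span of 15.3 kb against 21.5 kb, and 9 of the 30 lie on chromosome 8; without it the shares were 47.6% (28.3% to 67.6%) and 67.2% (54.7% to 77.7%), against 37.9% of coding genes. On the dense chromosomes, with or without chromosome 8, the intervals of clustered and isolated genes overlap.

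Of 8 clusters on the dense chromosomes 5 held a gene with a peak. On chromosome 5, Zkscan1, Zscan21 and Zfp113 all had one between 138085050 and 138155744. The Zscan21 peak is intergenic and lies 4.90 kb before that gene. Zkscan1 led with 5 peaks, of which 3 were in introns, 1 in an exon and 1 in the 3′ UTR. Another cluster on that chromosome, at 145194946 to 145292240, had peaks for Zkscan5, Zfp655 and Zscan25 and none for Zkscan14. All 9 of its peaks were narrow, at 200 to 1400 bp, with 5 for Zfp655, of which 3 lay at or past the gene's end. Another there, with Zfp12, Zfp316 and Zfp853, had none. On chromosome 18, Zscan30, Zfp397 and Zfp35 had peaks and Zfp24 had none. The extents of Zscan30 and Zfp397 overlap, so the Zfp397 peak of 7800 bp and the Zscan30 exon peak of 1400 bp cannot be given to 1 gene. On chromosome 8, Zfp868 and Zfp869 had 1 peak each among 5 genes, that of Zfp868 lying off the gene. The 4 genes from Zfp709 to Zfp961 had none. The same was true of the 4 genes from Zfp433 to Zfp938 on chromosome 10. On chromosome 16 Zfp263 had a peak and Zfp174 and Zfp597 had none. Genes of such clusters can share near-identical sequence, so how reads were split between them is uncertain.

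Zbtb1, a BTB factor of lymphoid development, and Zbtb25 form a pair that starts on opposite strands of chromosome 12 and shares 164 bp. Both had 2 peaks. In Zbtb25 these were 3690 bp in the 5′ UTR and 5535 bp in an intron, over 43.3% of the gene, and in Zbtb1 615 and 3280 bp in introns, over 14.5%. With 1 more peak named through a non-coding transcript, 30.5% of Zbtb1 was covered. None of the 4 peaks of the protein-coding transcripts lay on the shared stretch.

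Zinc finger genes under other symbols (Klf, Sp, Prdm and others) had a peak in 20 of 46 cases on the dense chromosomes (43.5%, 30.2% to 57.8%), against 34.5% of coding genes, and in 23 of 93 in all. Klf8 led with 25 peaks over 35.8% of the gene, followed by Sp4 with 24 over 64.1%, Zmat1 with 12 over 56.3% and Zeb1, a repressor of epithelial genes, with 10 over 47.4%. Zfx, the X-linked relative of Zfp711, had 7 over 53.6%. A list of co-repressor and heterochromatin partner genes of KRAB or BTB factors named 29 genes, of which 19 lay on a chromosome with peaks. Trim28 and Setdb1 were not among the 19. Of these 19 genes 8 had a peak (42.1%, 23.1% to 63.7%), against 18.1%, and on the dense chromosomes 6 of 9 (66.7%, 35.4% to 87.9%), against 34.5%. These genes were long, with a median span of 58.1 kb on the dense chromosomes, against 21.5 kb for coding genes, and the part of length in this share was not tested. Cul3, a ubiquitin ligase scaffold for BTB proteins, had 18 peaks over 62.7% of the gene, and Atrx, a remodeller of heterochromatin, had 17 over 62.1%. Suv39h1, a methyltransferase of heterochromatin, had 3 over 83.7% and Hdac2 had 2. Mbd3, Morc3 and Atf7ip2, also on the dense chromosomes, had none.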

How the data were processed

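RNA was measured in 1 anti-BUD31 library and 1 Input library, grouped by sample title. The submitters' processing notes name TopHat2 2.0.13 and mm10. How peaks were called, at what threshold and with what use of the Input is information not given in the sources used here. A list deposited by the authors holds 16331 peaks with start and end positions, a class, a transcript, a gene and the kind of transcript, per the file headers; it has no strength, so depth and precision per sample are unknown. Its running numbers reach 65288, of which 48957 have no peak in it, so the list is a part of a numbered set. Among 37 members with at least 2 peaks, 174 of the 372 numbers they span have no peak.

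Gene extents came from the GRCm38.p6 (mm10) RefSeq table, which matched all 55 members by gene number. A gene had a peak when the authors named it in a protein-coding row. Another 29 rows name 9 zinc finger genes through non-coding transcripts; 6 are members, and Zbtb11, Zbtb24 and Zfp326 have no other peak. Of the 197 member peaks 5 overlap another coding gene. Members, lists, the 10% and 250 kb limits and named genes (the markers Zfp407, Zbtb20, Zbtb37 and Zfp280c, leaders by peaks and cover, exon or UTR, Zbtb, Zscan, Zkscan and X-linked members, and those on sparse chromosomes) were chosen with earlier results of these data known. Values of some listed genes are not reported here. Counting code was tested on simulated data. Tools were Python 3.11.15, numpy 2.4.6, pandas 2.3.3, scipy 1.17.1 and matplotlib 3.10.9.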

Additional observations from a re-analysis of the deposited data

How the results depend on the processing

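With 1 library per group no library could be left out, and these are values with no test. Of 87 recomputed values 74 stayed within the 95% interval of the reported one and 13 moved beyond it. The cause was not tested, except that the dense chromosomes leave out the 161 zinc finger genes on sparse ones. For small groups the interval is wide, so staying within it says little. The Zkscan share, reported as 33.3% (9.68% to 70.0%), ran from 16.7% to 66.7% and was counted as staying. On the dense chromosomes the shares of genes with a peak were 50.9% for all zinc finger genes, 46.5% for Zfp, 62.5% for Zbtb and 100% for Zscan. They were 40% for clustered and 55.1% for isolated genes, 43.5% for other C2H2 genes and 66.7% for the co-repressor and heterochromatin partner genes. With peaks of at least the median width of their chromosome the shares were 15.99% for all zinc finger genes, 7.14% for clustered genes and 16.7% for Zscan, against 14.3% of coding genes. With 1 peak per gene, the widest, the intron share was 63.6% and the median width 3075 bp. Under every setting run, the share of all zinc finger genes with a peak was above, and the intron share of their peaks below, the coding value. The Zfp share lay below it, at 18.4% against 19.0%, when any overlap of at least 1 bp counted, and also when a gene had to cover 50% of a peak or the peak had to lie in the gene body. The median width of member peaks was 1230 bp without Zfp407 (coding peaks: 1400 bp) and 1230 bp without the X chromosome (coding peaks: 1230 bp). Counting every transcript kind, a choice made after seeing the data as was leaving out chromosome 8, gave 60 of 269 genes (22.3%) and 72.3% of peaks in introns. No paired analysis was possible because there is 1 library per group.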
